A study of Mus musculus with 20 samples.

Results

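Collagen chains were examined as the 42 genes, of 19505 tested, whose symbol is Col, a type number, the letter a and a chain number. They comprised 11 fibrillar chains, 6 basement membrane chains of type IV and 6 chains of type VI. The other 19 were 8 fibril-associated chains, 2 multiplexins, 3 short-chain network chains, 4 transmembrane chains, Col26a1 and Col28a1. By their description the samples were mouse adipocytes obtained from fat and differentiated in culture, and expression arrays had measured their total RNA. The sources used here give no age, sex or diet of the animals. Arrays are named by their sample titles, which join tissue label, a number and genotype. Each of 4 groups held 5 arrays: sc WT (wild type, tissue label sc), sc KO (Olfm2 knockout, sc), g WT (wild type, g) and g KO (Olfm2 knockout, g). The series title speaks of Olfm2, which encodes the secreted protein olfactomedin 2, in fat cells in obesity. The labels do not spell out sc and g, name no promoter or Cre for the knockout, and do not say that the cultures were separate. The p-values therefore measure the spread between these arrays.

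Collagens are triple helices, secreted as procollagens and assembled outside the cell. The fibrillar chains of types I, III and V form the tension-bearing fibrils of connective tissue, type IV forms the network of the basement membrane that wraps every fat cell, and type VI forms beaded microfilaments between them. In adipose tissue type VI is abundant, and the C-terminal fragment of its alpha 3 chain, endotrophin, is a signalling peptide. Chains are hydroxylated and folded in the endoplasmic reticulum, trimmed and crosslinked outside the cell, bound by receptors and cut by metalloproteinases and cathepsin K.

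Values are log2 signals, so a difference of 1 is a doubling of signal. Differences were tested with limma across all genes, two-sided, and a gene is called when its adjusted p is under 0.05. Errors of groups are SD over 5 arrays, and errors of differences are the moderated SE. Levels of different probes were not compared. Over the 20 arrays 38 of the 42 chains had a group mean above 5. Col10a1, Col24a1, Col4a3 and Col6a4 did not, and array medians of the negative control probes were 4.45 to 4.84.

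Several arrays carried transcripts of other tissues, and these values stand beside the results they touch. The mean of 16 hepatocyte markers was above 7 on 8 arrays: sc300KO, sc318KO, g286 WT, g308 WT, and every g KO array but g300 KO. The mean of 9 lymphocyte markers was above 7 on sc286WT, sc317KO, sc320KO and g309 WT, and that of 12 skeletal muscle markers on sc286WT, sc307WT and sc317KO. Mature adipocyte markers averaged 11.37 ± 0.11 in sc WT, 11.46 ± 0.05 in sc KO, 10.79 ± 0.16 in g WT and 11.22 ± 0.08 in g KO (SD, n = 5 each). Mast cell marker means ran from 5.66 on g300 KO to 8.44 on g307 WT. Macrophage marker means, 7.89 to 9.79, and endothelial means, 7.87 to 9.09, were well above the negative controls, so the RNA was not that of adipocytes alone. In such bulk RNA fewer cells of a type and less RNA per cell cannot be told apart. How transcripts of liver, muscle and immune cells came into samples described as cultured adipocytes was not tested. Olfm2 itself averaged 4.88 in sc WT (range 4.28 to 5.25), 3.22 in sc KO (2.67 to 3.58), 4.34 in g WT (4.08 to 4.60) and 3.54 in g KO (3.36 to 3.72). Its knockout arrays lay below the wild-type arrays in both depots and it was called lower in both (adjusted p = 0.000152 in sc and 0.00784 in g). Among these means sc WT alone was above the negative control medians, so the size of the falls cannot be read.

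Depot differences were largest in type VI chains, and knockout differences were called in g for chains of types I, III, V and VI. In g KO 5 of the 42 chains (11.9%) were called against g WT, all lower: Col1a2, Col3a1, Col5a2, Col6a3 and Col6a5. Among all genes 11.3% were called in that comparison and 6.27% were called lower. The 5 were also the only chains whose g KO arrays all lay below all g WT arrays, which 5.73% of all genes did. The median difference of the 42 chains was 0.03, beside 0.02 for all genes, and 25 chains lay above 0. In sc limma called 0 of the 42 chains for the knockout, where 0.677% of all genes were called. There 10 chains had an unadjusted limma p under 0.05, and the share of all genes at that threshold was not counted. The median there was -0.09, beside 0.01 for all genes, with 26 chains below 0.

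**Figure D1:**
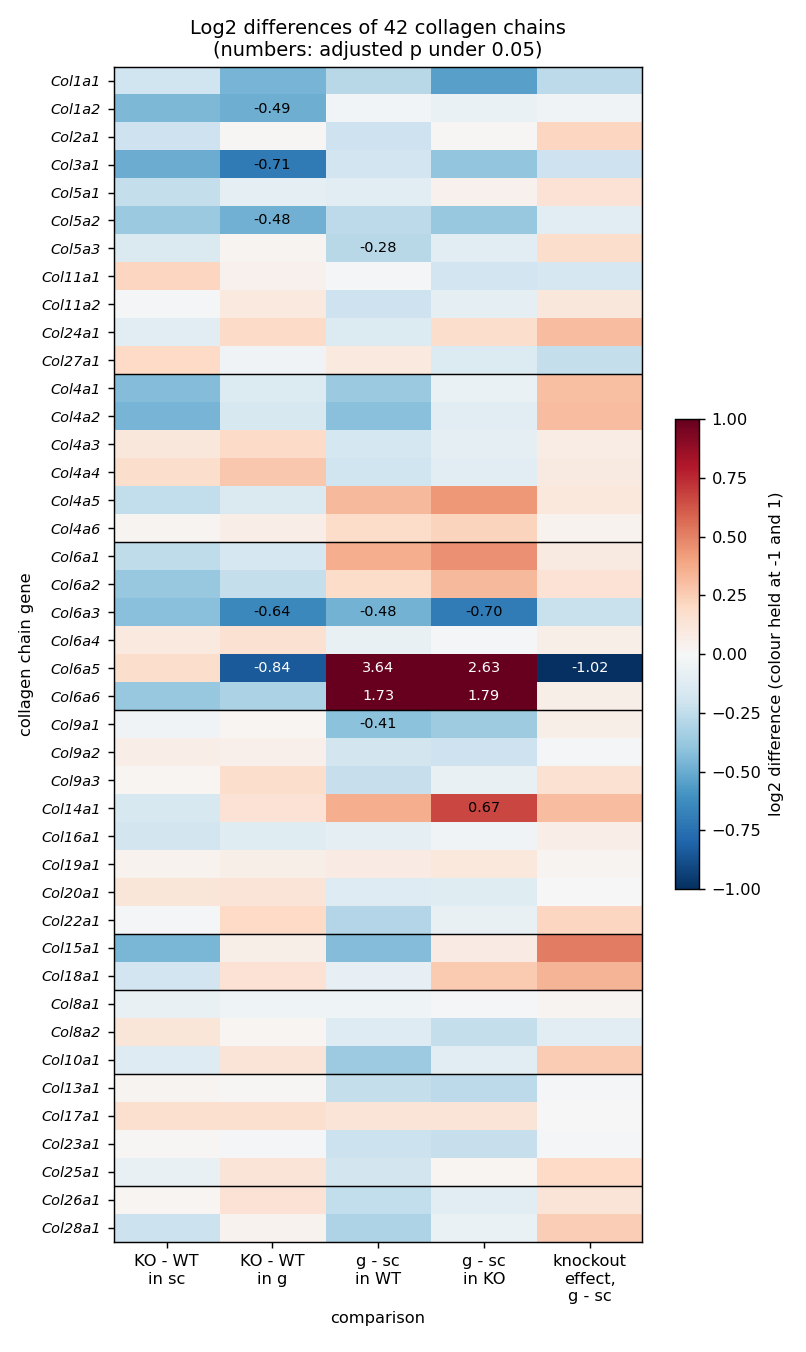
Log2 differences of the 42 collagen chains (rows, grouped by class) in 5 comparisons (columns). Colour runs from blue (lower in the first-named group) to red (higher) and is held at -1 and 1, and a printed number marks an adjusted p under 0.05. The largest printed value is 3.64, for Col6a5 in g against sc of wild type, and the knockout column in g holds 5 called chains, all blue.

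Between the depots, 2 chains were called higher in g WT than in sc WT and 3 lower, where 9.3% of all genes were called higher and 8.48% lower. In the knockout 3 chains were called higher in g and 1 lower, where the shares among all genes were 2.87% and 1.27%. The median difference of the chains was -0.18 in wild type, beside -0.04 for all genes, and -0.07 in the knockout, beside -0.02. These comparisons share arrays with each other and with the knockout comparisons. For the difference of the knockout effect between the depots, 1 chain, Col6a5, was called, where 0.0769% of all genes were.

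Type VI held the largest depot differences and 2 of the 5 chains that fell in g KO. It has 6 chains in the mouse: alpha 1 and alpha 2 pair with alpha 3 in the classic molecule, and the later-found alpha 4, alpha 5 and alpha 6 chains resemble alpha 3 and can take its place. In the RefSeq gene order of assembly GRCm38.p6, Col6a6, Col6a5 and Col6a4 are consecutive protein-coding genes between Pik3r4 and Glyctk. The 250 bases before a transcript start of Col6a5 and Col6a6, which were higher in g, and of Col6a3, which was lower in g, are given from RefSeq promoter sequences of GRCm38.p6. These starts lie inside the genes as the RefSeq gene table bounds them, by 1820 bases for Col6a5, 161 for Col6a6 and 30 for Col6a3, so the Col6a5 window is wholly within its gene. They are read 5′ to 3′ on the gene's strand. The windows are chr9:105960644-105960893 for Col6a5, chr9:105828086-105828335 for Col6a6 and chr1:90843972-90844221 for Col6a3, all on the minus strand. Capitals mark matches to the GC box GGGCGG on either strand. The other motifs searched on both strands were the TATA box TATAAA, the box named for its letters CCAAT and the AP-1 site TGANTCA, and none of them has a match in these 3 windows.
Col6a5: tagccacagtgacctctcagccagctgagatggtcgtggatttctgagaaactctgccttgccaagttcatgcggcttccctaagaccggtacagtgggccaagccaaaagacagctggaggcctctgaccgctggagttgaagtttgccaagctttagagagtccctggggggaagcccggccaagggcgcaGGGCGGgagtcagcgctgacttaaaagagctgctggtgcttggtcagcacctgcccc
Col6a6: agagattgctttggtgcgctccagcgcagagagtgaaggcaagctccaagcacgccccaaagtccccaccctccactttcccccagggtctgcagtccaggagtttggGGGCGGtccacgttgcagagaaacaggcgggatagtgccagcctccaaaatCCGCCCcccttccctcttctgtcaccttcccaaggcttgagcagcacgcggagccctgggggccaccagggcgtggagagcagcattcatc
Col6a3: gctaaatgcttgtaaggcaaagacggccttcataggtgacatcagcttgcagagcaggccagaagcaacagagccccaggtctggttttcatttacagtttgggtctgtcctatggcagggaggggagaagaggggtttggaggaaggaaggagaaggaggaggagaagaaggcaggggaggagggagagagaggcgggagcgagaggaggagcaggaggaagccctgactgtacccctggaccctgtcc
Col6a5 has 1 GC box, 57 bases before the start, Col6a6 has 2, at 142 bases and, on the opposite strand, at 91 bases, and Col6a3 has none. A GC box occurs in 32.7% of 32841 promoter windows of this length and in 21 of the 37 windows that 34 collagen genes have in the table, so these matches are a description and no site is implied.

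Col6a5, the alpha 5 chain, read 5.54, 5.52, 5.66, 5.57 and 5.53 on the sc WT arrays and 5.41, 5.78, 6.01, 5.42 and 6.07 on the sc KO arrays. In g WT it read 9.32, 9.21, 9.10, 9.22 and 9.20, and in g KO 8.0, 8.39, 8.15, 8.57 and 8.72. Every g array lay above every sc array, the g WT arrays spanned a narrow band, and every g KO array lay below that band. The g minus sc difference was 3.64 in wild type (SE 0.14, adjusted p = 1.11e-12), a 12.5-fold higher signal, and 2.63 in the knockout (adjusted p = 5.64e-10), a 6.17-fold higher signal. Both depot calls held under all 27 alternatives that were run for each.

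Within g, Col6a5 fell by 0.84 in the knockout (SE 0.14, adjusted p = 0.000582), to a signal 1.79-fold below wild type. In sc the difference was 0.18 (95% interval -0.11 to 0.46, adjusted p = 0.716). The sc means were 5.56 in wild type and 5.74 in the knockout, little above the negative control medians of 4.45 to 4.84. A fall in sc therefore had little room to show, and background also limits the size of the depot folds. The difference between the knockout effects in g and in sc was -1.02 (SE 0.19, adjusted p = 0.0483). That last call ended when any 1 of 15 of the 20 arrays was left out, with adjusted p between 0.0551 and 0.121 and differences between -1.05 and -0.93. It also ended without the lymphocyte-rich arrays (-0.81, adjusted p = 0.186) and without the muscle-rich arrays (-0.97, adjusted p = 0.162). The 15 were all arrays except sc286WT, sc300KO, sc318KO, g318 KO and g320 KO. The fall in g remained called with each array left out and with the fibroblast marker mean as a covariate. Without the 8 arrays rich in hepatocyte transcripts, which leaves in g KO only g300 KO, the lowest of its group for Col6a5, the difference was -1.16 (adjusted p = 0.0151). With the macrophage marker mean as a covariate it was -0.61 (adjusted p = 0.499), and with the adipocyte marker mean -0.77 (adjusted p = 0.378). Both marker means differed between g WT and g KO without overlap, so these fits cannot separate marker from genotype.

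Col6a6, the alpha 6 chain, read 6.03, 5.34, 6.09, 5.63 and 6.09 in sc WT and 5.36, 5.87, 5.50, 5.29 and 5.27 in sc KO. The g arrays read 7.60, 7.76, 7.32, 7.63 and 7.54 in wild type and 7.12, 7.53, 7.53, 7.13 and 6.97 in the knockout. All g arrays again lay above all sc arrays, while the genotypes overlapped in both depots. The depot difference was 1.73 in wild type (SE 0.16, adjusted p = 7.9e-07) and 1.79 in the knockout (adjusted p = 6.99e-07). The knockout difference was -0.38 in sc (adjusted p = 0.377) and -0.31 in g (adjusted p = 0.23), neither called. The wild-type depot call was lost under 1 alternative, the macrophage covariate (1.77, adjusted p = 0.148). That marker mean did not overlap between sc WT and g WT, so this fit cannot separate marker from depot.

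The third chain of that gene cluster, Col6a4, averaged between 4.17 and 4.34 in the 4 groups, under the negative control medians, so no depot or knockout difference could be read from it. Of the genes on either side of the cluster, Pik3r4 averaged 7.31 in sc WT and 7.43 in g WT, and Glyctk 6.47 and 6.16.

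Mesothelial markers, which mark the lining cells of visceral fat, were higher in g too. All 8 averaged 4.88 in sc WT, 4.94 in sc KO, 6.40 (range 5.92 to 6.79) in g WT and 6.91 (5.93 to 7.75) in g KO. In g against sc 6 of the 8 were called higher in wild type and 8 of 8 in the knockout, beside 9.3% and 2.87% of all genes. For the knockout in g 0 of 8 were called, but all 8 lay above 0, at a median of 0.56 beside 0.02 for all genes. Of them 5 had an unadjusted limma p under 0.05 there, and the share of all genes at that threshold was not counted. The part of these cells in the depot difference of Col6a5 and Col6a6 was not tested.

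**Figure D2:**
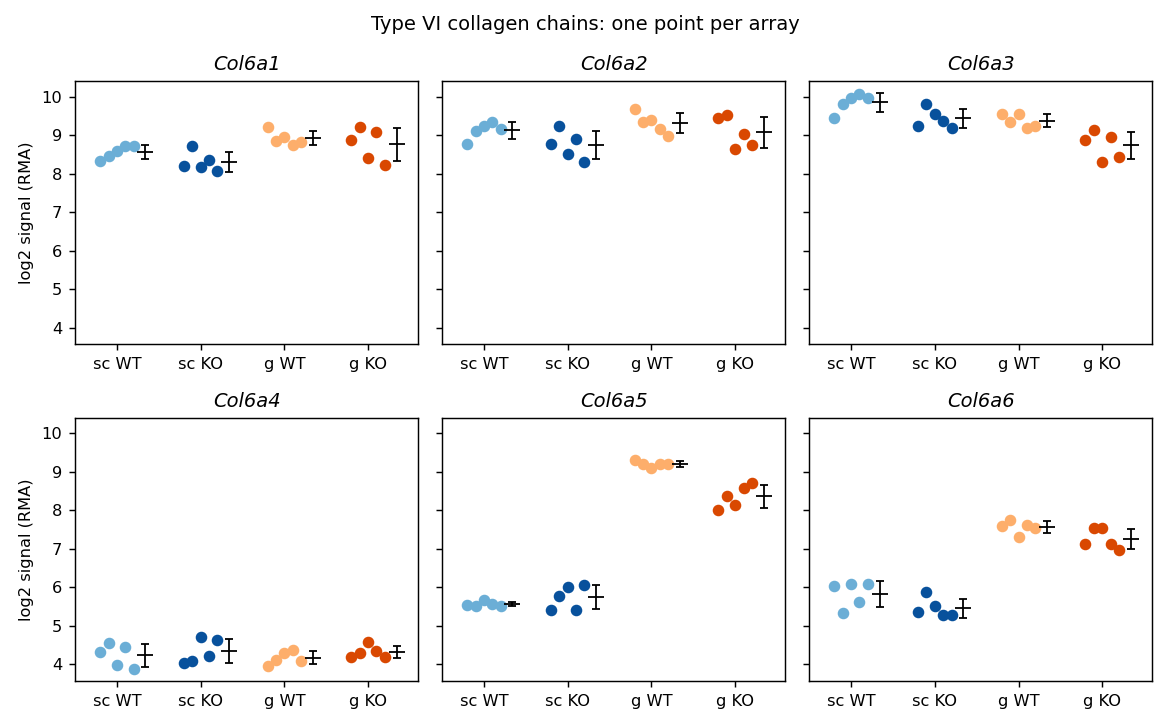
Log2 signal of the 6 type VI chains, 1 point per array, with the group mean and SD (n = 5) as a black bar beside the points. Col6a5 and Col6a6 sit higher in both g groups than in both sc groups, Col6a5 is lower in g KO (8.37) than in g WT (9.21), and Col6a3 runs the other way between depots.

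Col6a3 encodes the alpha 3 chain. It read 9.45, 9.82, 9.96, 10.08 and 9.96 in sc WT and 9.23, 9.81, 9.56, 9.38 and 9.20 in sc KO. In g it read 9.55, 9.35, 9.56, 9.20 and 9.23 in wild type and 8.86, 9.13, 8.30, 8.95 and 8.44 in the knockout. The g KO arrays lay below all g WT and all sc arrays, and the other 3 groups overlapped each other in part.

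Col6a3 fell by 0.64 in g KO against g WT (SE 0.16, adjusted p = 0.0116), to a signal 1.56-fold lower. Its depot difference ran against that of Col6a5 and Col6a6, at -0.48 in wild type (adjusted p = 0.0432) and -0.70 in the knockout (adjusted p = 0.014). The knockout difference in sc was -0.42 (adjusted p = 0.305), and the difference between the depots' knockout effects was -0.22 (95% interval -0.69 to 0.25). The fall in g held with each array left out. The wild-type depot call did not hold without any 1 of sc287WT, sc307WT, sc308WT, sc309WT, g287 WT, g308 WT and g309 WT (adjusted p 0.0679 to 0.104). Between wild-type depots it became -0.04 with the adipocyte marker mean as covariate (adjusted p = 0.979) and -1.28 with the macrophage mean (adjusted p = 0.247). With the same covariates the knockout depot difference was -0.52 (adjusted p = 0.202) and -1.18 (adjusted p = 0.0259). The adipocyte mean was 11.19 to 11.49 on the sc WT arrays and 10.61 to 10.98 on the g WT arrays. For the macrophage mean these ranges were 8.20 to 8.48 and 9.31 to 9.79. Neither mean overlapped between depots in either genotype, so these fits cannot separate marker from depot. Without the hepatocyte-rich arrays the depot differences were -0.47 in wild type (adjusted p = 0.0816) and -0.66 in the knockout (adjusted p = 0.403), the latter with 1 g KO array left.

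Col6a1 and Col6a2, neighbours in the genome whose chains join alpha 3, were called in no comparison. Col6a1 read 8.32 to 8.72 in sc WT and 8.76 to 9.22 in g WT, and these arrays did not overlap, at a difference of 0.36 (adjusted p = 0.151). In the knockout the depot difference was 0.46 (adjusted p = 0.15) with overlap, since g KO ranged from 8.22 to 9.21. Col6a2 averaged 9.13 ± 0.21 in sc WT, 8.75 ± 0.36 in sc KO, 9.31 ± 0.26 in g WT and 9.07 ± 0.40 in g KO. Its knockout difference was -0.23 in g (95% interval -0.63 to 0.16) and -0.38 in sc (-0.77 to 0.02).

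The fibrillar chains gave 3 of the 5 falls in g KO. Type I collagen, made of alpha 1 and alpha 2 chains, and type III, a homotrimer of the alpha 1 chain, are the bulk of interstitial fibrils, and type V starts fibrils and limits their width. Of 11 fibrillar chains, Col1a2, Col3a1 and Col5a2 were called lower and 0 higher in g KO, where 6.27% of all genes were called lower. The median of the class was -0.03. In sc 0 were called and 9 of 11 lay below 0, with a median of -0.20. The 250 bases before the starts of Col1a2 (chr6:4505368-4505617, plus strand) and Col3a1 (chr1:45311288-45311537, plus strand), from the same RefSeq table and build, are shown because both chains fell in g KO. Capitals mark matches to GGGCGG and CCAAT in the first and to TATAAA in the second.
Col1a2: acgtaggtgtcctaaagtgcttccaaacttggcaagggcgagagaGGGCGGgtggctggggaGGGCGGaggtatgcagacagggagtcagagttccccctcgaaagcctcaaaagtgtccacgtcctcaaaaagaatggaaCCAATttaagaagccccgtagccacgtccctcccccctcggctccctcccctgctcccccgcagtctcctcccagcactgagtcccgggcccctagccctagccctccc
Col3a1: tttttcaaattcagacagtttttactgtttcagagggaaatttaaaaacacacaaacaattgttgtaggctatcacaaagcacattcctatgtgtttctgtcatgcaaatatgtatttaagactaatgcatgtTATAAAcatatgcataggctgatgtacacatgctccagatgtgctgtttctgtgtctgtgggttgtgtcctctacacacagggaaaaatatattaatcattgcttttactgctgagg
Col1a2 has GC boxes at 205 and 188 bases and a CCAAT box at 109 bases before its start, and bases G and C make up 62% of the window. Col3a1 has TATAAA at 117 bases and 35.2% G and C. CCAAT occurs in 33.9% and TATAAA in 12.4% of all windows of this length, and in 12 and 5 of the 37 collagen windows. TGANTCA, in 6.75% of all windows and 1 collagen window, was in neither.

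Col3a1 read 10.97, 10.94, 11.35, 11.50 and 11.49 in sc WT and 10.72, 11.08, 10.83, 10.63 and 10.50 in sc KO. In g it read 11.35, 10.81, 11.26, 10.91 and 10.99 in wild type and 10.41, 10.62, 9.97, 10.73 and 10.03 in the knockout. The g KO arrays were below every g WT array, while in sc the genotypes overlapped through 1 array, sc306KO. Col3a1 fell by 0.71 in g (SE 0.16, adjusted p = 0.00686), to a signal 1.63-fold lower, and the call held with each array left out. In sc the difference was -0.50 (95% interval -0.84 to -0.16, adjusted p = 0.201), and the effects in the depots differed by -0.21 (interval -0.69 to 0.27).

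Col1a2, the alpha 2 chain of type I, read 9.23, 9.47, 9.76, 9.94 and 10.0 in sc WT and 9.09, 9.52, 9.36, 9.17 and 9.02 in sc KO. The g WT arrays read 9.90, 9.66, 9.78, 9.49 and 9.43, all above the g KO arrays at 9.14, 9.18, 9.08, 9.40 and 9.02. It fell by 0.49 in g (SE 0.14, adjusted p = 0.0271). Its difference in sc was nearly as large, at -0.45 (SE 0.14, adjusted p = 0.176), and the effects differed between depots by -0.04 (interval -0.45 to 0.37). Without sc286WT, the array rich in muscle and lymphocyte transcripts, the sc difference was -0.56 and was called (adjusted p = 0.0479). That was the only 1 of 27 alternatives in sc with a call, and their differences ran from -0.61 to -0.23.

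Its partner chain Col1a1 was not called. Col1a1 read 9.22, 9.49, 9.87, 9.96 and 9.96 in sc WT, 9.59, 9.89, 9.35, 9.57 and 9.09 in sc KO, 9.60, 9.26, 9.54, 9.31 and 9.41 in g WT, and 9.21, 8.89, 8.81, 9.27 and 8.61 in g KO. Only g318 KO reached into the g WT range. The knockout difference in g was -0.47 (SE 0.16, adjusted p = 0.071), and without g318 KO it was -0.55 and called (adjusted p = 0.0413). It was also called without the 4 arrays rich in lymphocyte transcripts (-0.47, adjusted p = 0.0435). Of 27 alternatives in g 3 gave a call, and the differences ran from -0.74 to -0.15. In sc the difference was -0.20 (interval -0.54 to 0.14).

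Col5a2, the alpha 2 chain of type V, read 7.26, 7.64, 7.86, 7.98 and 7.78 in sc WT and 7.34, 7.57, 7.39, 7.44 and 6.94 in sc KO. In g it read 7.68, 7.21, 7.71, 7.33 and 7.26 in wild type and 7.05, 7.11, 6.76, 7.12 and 6.73 in the knockout, again without overlap. The fall in g was 0.48 (SE 0.15, adjusted p = 0.0359), beside -0.37 in sc (adjusted p = 0.334). The calls of Col1a2 and Col5a2 in g each ended without any 1 of g286 WT, g307 WT, g317 KO and g320 KO. The adjusted p then lay between 0.0656 and 0.0796 for Col1a2 and between 0.0963 and 0.11 for Col5a2.

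The other type V chains were called for the knockout in neither depot. Col5a1 spread widely inside the groups, from 6.77 to 8.11 in sc KO and from 7.09 to 8.02 in g KO, with knockout differences of -0.24 in sc and -0.09 in g. Col5a3 read 6.71 to 6.96 in sc WT and 6.40 to 6.66 in g WT without overlap, and was lower in g by 0.28 (SE 0.09, adjusted p = 0.0423). In the knockout the depots differed by -0.10 (interval -0.30 to 0.09). The wild-type call ended without any 1 of 8 of the 10 wild-type arrays, all but sc286WT and g286 WT (adjusted p 0.0593 to 0.108), and with every marker covariate but the fibroblast mean (adjusted p 0.0705 to 0.999). Macrophage and adipocyte means did not overlap between sc WT and g WT, so those covariates cannot be separated from depot.

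The remaining fibrillar chains are best known from cartilage or are minor regulators of fibrils, and none was called. Group means were 5.04 to 5.25 for Col2a1, 5.29 to 5.52 for Col11a1, 7.37 to 7.58 for Col11a2, 4.05 to 4.24 for Col24a1 and 5.23 to 5.43 for Col27a1. Col27a1 had the smallest p of these for the knockout in sc, at a difference of 0.20 (interval 0.03 to 0.38, adjusted p = 0.375).

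**Figure D3:**
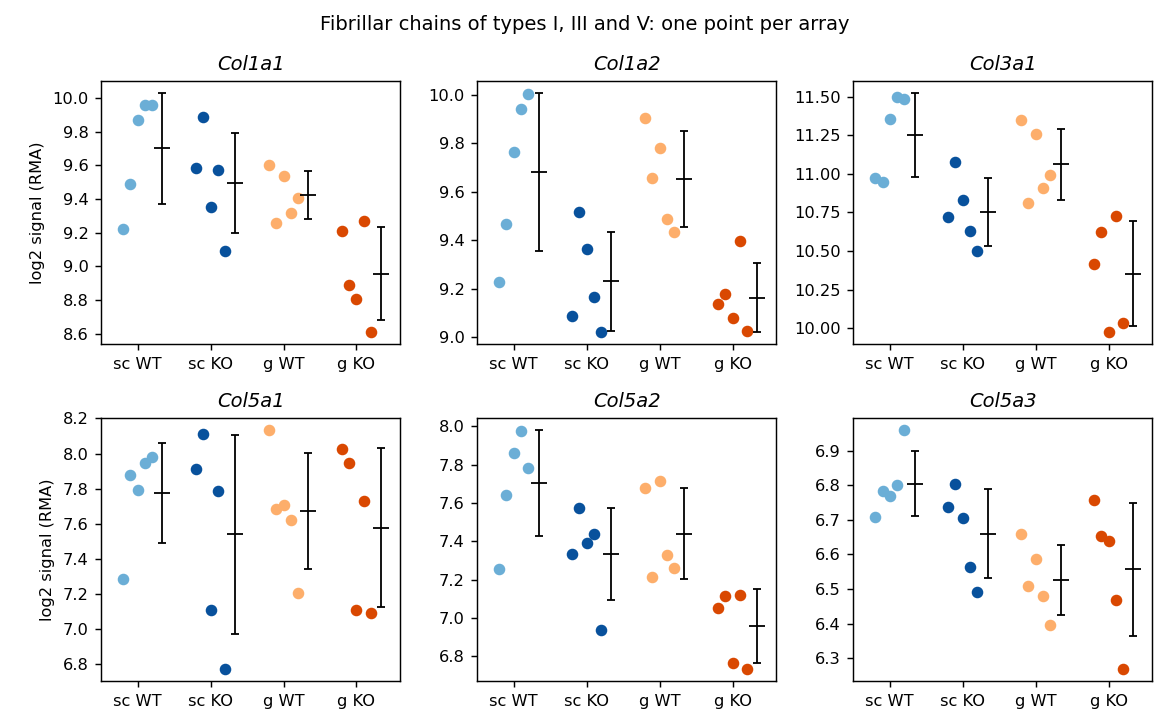
Log2 signal of the type I, III and V chains, 1 point per array, with the group mean and SD (n = 5) as a black bar and an axis range of its own in each panel. The g KO arrays lie below all g WT arrays for Col1a2, Col3a1 and Col5a2, and overlap them for Col1a1, Col5a1 and Col5a3.

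Markers of fibroblasts and adipose progenitors, the main makers of fibrillar collagen in fat, were measured beside these chains. Their mean over 13 genes, none of them a collagen, was 9.17 in g WT (range 9.08 to 9.27) and 8.96 in g KO (8.87 to 9.10). The sc means were 9.0 and 8.85 for the same genotypes. In sc KO against sc WT 2 of the 13 were called lower and 0 higher, where 0.677% of all genes were called. There 7 lay below 0, down to -1.17, and 6 above. Of the 13 markers 9 lay below 0 in g KO against g WT and 4 above, up to 0.36 for Dpp4, with a median of -0.16. In g 3 were called lower and 0 higher, where 6.27% of all genes were called lower. The 3 were Lum (-1.26, adjusted p = 0.000585), a proteoglycan of collagen fibrils, Postn (-0.85, adjusted p = 0.04), a matrix protein that binds collagen, and Dcn (-0.28, adjusted p = 0.028), which coats fibrils. With that mean as a covariate the differences in g were -0.19 for Col1a2, -0.38 for Col3a1, -0.18 for Col5a2 and -0.38 for Col6a3, none called (adjusted p 0.162 to 0.492).

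Immune cell markers fell more. The mean of 14 macrophage markers was 9.55 in g WT (9.31 to 9.79) and 8.83 in g KO (8.52 to 9.12), with 11 of 14 called lower and 1 higher. All 7 mast cell markers were called lower, from a mean of 7.99 to 6.27. Of 16 mature adipocyte markers 9 were called higher in g KO and 0 lower. Among all genes 6.27% were called lower in that comparison and 11.3% in either direction. With the macrophage or the adipocyte mean as a covariate, 0 of the 42 chains were called in g, and among all 19505 genes 1 and 10 were called. Neither mean overlapped between g WT and g KO, so the loss of calls does not separate marker from genotype. The differences of Col1a2, Col3a1, Col5a2 and Col6a3 were -0.20, -0.17, -0.15 and -0.15 with the macrophage mean. With the adipocyte mean they were larger, at -0.76, -0.79, -0.69 and -0.96. Without the 8 hepatocyte-rich arrays, which leaves 1 g KO array whose spread is borrowed from the remaining groups, the differences were -0.49 for Col1a2, -0.60 for Col3a1, -0.34 for Col5a2 and -0.52 for Col6a3, with adjusted p from 0.424 to 0.735. With the hepatocyte mean as a covariate the calls of Col1a2 (-0.42), Col5a2 (-0.45) and Col6a3 (-0.52) ended, with adjusted p from 0.07 to 0.119. The part of these cell types in the collagen differences was not tested.

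The basement membrane chains of type IV were called in no comparison. Col4a1 and Col4a2 lie head to head in the genome and form the common alpha 1, alpha 1, alpha 2 molecule. In sc WT both were lowest on sc286WT, while in g WT Col4a1 was lowest on g309 WT and Col4a2 on g307 WT. Col4a1 read 8.81, 9.30, 9.25, 9.11 and 9.22 in sc WT, 8.71, 9.24, 8.35, 8.98 and 8.24 in sc KO, 8.99, 9.05, 8.68, 8.67 and 8.46 in g WT, and 8.85, 8.95, 8.27, 8.76 and 8.36 in g KO. Col4a2 read 9.29 to 9.74, 8.66 to 9.66, 9.0 to 9.46 and 8.60 to 9.31 in the same groups. Within sc KO the arrays sc317KO and sc320KO were the lowest for both chains, and within g KO g317 KO and g320 KO were.

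The knockout difference in sc was -0.44 for Col4a1 (interval -0.81 to -0.06, adjusted p = 0.372) and -0.47 for Col4a2 (-0.85 to -0.08, adjusted p = 0.342). Without the 4 lymphocyte-rich arrays, which include sc317KO and sc320KO, they were -0.24 and -0.23. Endothelial markers, of cells that lay down type IV collagen, were also lowest in sc on those arrays, with means of 7.91 and 7.97 where sc300KO, sc306KO and sc318KO read 8.72, 8.61 and 8.66. In g the knockout differences were -0.14 (interval -0.51 to 0.24) and -0.16 (-0.55 to 0.23). Between depots of wild type Col4a2 differed by -0.42 (adjusted p = 0.133) and Col4a1 by -0.37 (adjusted p = 0.178). In that comparison 4 of 10 endothelial markers were called lower, beside 8.48% of all genes. The part of the lymphocyte-rich arrays and of endothelial cells was not tested.

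Col4a3, Col4a4, Col4a5 and Col4a6 encode chains of more specialised basement membranes such as those of kidney and smooth muscle. Col4a5 averaged 4.78 in sc WT, 4.53 in sc KO, 5.10 in g WT and 4.96 in g KO, and was not called (adjusted p = 0.0707 and 0.0504 between the depots of wild type and knockout). Both sc means were within the range of the negative control medians, so the size of its depot differences cannot be read. The Col4a3, Col4a4 and Col4a6 depot and knockout differences lay between -0.20 and 0.27, and none was called.

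Col15a1 and Col18a1, the multiplexins of the basement membrane zone, carry fragments at their C-terminus that restrain vessel growth. Col15a1 read 9.30, 9.85, 9.89, 9.83 and 9.73 in sc WT, 9.24, 9.93, 8.90, 9.37 and 8.88 in sc KO, 9.42, 9.30, 9.30, 9.29 and 9.12 in g WT, and 9.49, 9.53, 9.34, 9.36 and 9.01 in g KO. Its sc KO arrays spanned more than a log2 unit, with sc317KO and sc320KO again lowest. The knockout difference was -0.46 in sc (adjusted p = 0.268) and 0.06 in g (adjusted p = 0.882), and without sc306KO the sc difference was -0.62 and called (adjusted p = 0.0308). That was the only 1 of 27 alternatives in sc with a call, and their differences ran from -0.62 to -0.22. The effects differed between depots by 0.51 (interval 0.03 to 1.0, adjusted p = 0.355). Col18a1 averaged 8.13, 7.94, 8.05 and 8.20 in sc WT, sc KO, g WT and g KO, with no call.

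**Figure D4:**
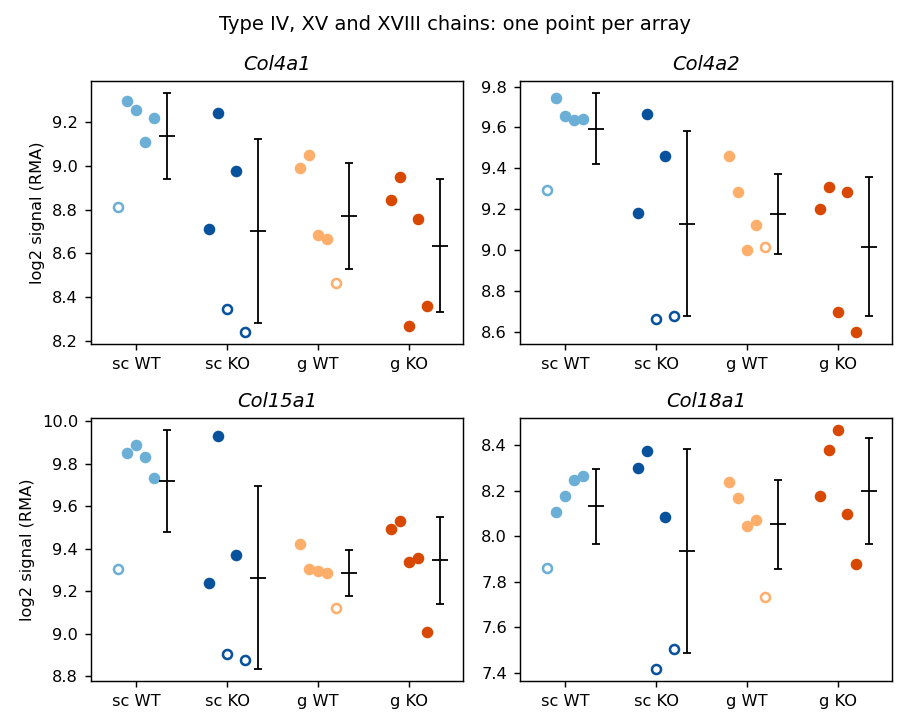
Log2 signal of Col4a1, Col4a2, Col15a1 and Col18a1, 1 point per array, with the group mean and SD (n = 5) as a black bar and an axis range of its own in each panel. Open circles are the 4 arrays whose lymphocyte marker mean was above 7. They are the lowest or next to lowest of their group in each panel.

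Of the fibril-associated chains, which sit on fibril surfaces, 2 were called, each in 1 depot comparison. Col14a1, which binds type I fibrils through decorin, read 6.27, 6.37, 6.26, 5.70 and 6.22 in sc KO and 6.82, 6.73, 6.75, 7.06 and 6.82 in g KO without overlap. It was higher in g by 0.67 in the knockout (SE 0.15, adjusted p = 0.0131), a call that held with each array left out. With the macrophage covariate the difference was 0.40 (adjusted p = 0.436), with the adipocyte covariate 0.68 (adjusted p = 0.101) and with the fibroblast covariate 0.55 (adjusted p = 0.0523). The macrophage and adipocyte means did not overlap between sc KO and g KO, so those covariates cannot be separated from depot. Without the hepatocyte-rich arrays, which leaves 1 g KO array, it was 0.54 (adjusted p = 0.534). In wild type the depots differed by 0.36 (adjusted p = 0.106), with sc WT at 5.89 to 6.67 and g WT at 6.41 to 7.11. The depot differences of the genotypes differed by 0.31 (interval -0.14 to 0.75), which was not called.

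Col9a1, a chain of the type IX collagen of cartilage fibrils, read 5.52, 5.62, 5.39, 6.0 and 5.51 in sc WT and 4.76, 5.30, 5.11, 5.41 and 5.40 in g WT. It was lower in g by 0.41 (adjusted p = 0.041), with overlap, and by 0.36 in the knockout (adjusted p = 0.168). The wild-type call ended without any 1 of sc287WT, sc308WT, sc309WT, g286 WT and g307 WT (adjusted p 0.0515 to 0.124), and with each marker covariate (adjusted p 0.0812 to 0.795). Of these covariates, the macrophage and adipocyte means did not overlap between sc WT and g WT and cannot be separated from depot.

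The other 15 chains, of fibril-associated, short-chain, transmembrane and other types, averaged 3.87 to 7.82 over the arrays and were called in no comparison. Their knockout differences ran from -0.21 to 0.16 in sc and from -0.12 to 0.20 in g, with 9 and 12 of 15 above 0. Their depot differences ran from -0.36 to 0.13 in wild type, 13 of 15 below 0, and from -0.26 to 0.13 in the knockout, 12 of 15 below 0.

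The genes that make, crosslink, bind and cut collagen were read in 5 lists. For the knockout in g 11.3% of all genes were called and 6.27% were called lower. The called shares of the lists, in the order given below, were 5.88%, 38.5%, 62.5%, 18.2% and 13.3%. The first, all lower, was near 6.27%. The calls of the last were all higher, and the share of all genes called higher is below the 11.3% called in either direction. Of 17 genes of chain hydroxylation and folding, 1 fell in g KO, Plod2 (-0.70, SE 0.16, adjusted p = 0.00653), which hydroxylates the lysines that crosslinks use. The median of that list was -0.02. Of 13 genes of procollagen processing and crosslinking, 4 fell and 1 rose, with a median of -0.10. Pcolce, which speeds the trimming of procollagen by the C-proteinase, fell by 1.05 (adjusted p = 0.0016). Lox and Loxl3, which oxidise lysines for crosslinks, fell by 0.68 (adjusted p = 0.0427) and 0.41 (adjusted p = 0.0184). Adamts14, a procollagen N-proteinase, fell by 0.38 (adjusted p = 0.0439). Pxdn, the peroxidase that makes the sulfilimine crosslink of type IV collagen, rose by 0.77 (SE 0.14, adjusted p = 0.00141).

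Of 8 collagen-degrading enzymes 5 fell in g KO and 0 rose, at a median of -0.75 beside 0.02 for all genes. Mmp2, a gelatinase, fell by 1.09 (SE 0.15, adjusted p = 0.000158), and Mmp14, the membrane enzyme that activates it, by 0.89 (adjusted p = 0.000445). Ctsk, which encodes cathepsin K, fell by 1.56 (adjusted p = 0.00444), the collagenase Mmp13 by 0.89 (adjusted p = 0.0236) and the fibroblast protease Fap by 0.61 (adjusted p = 0.04). Of 11 receptor and uptake genes 2 fell and 0 rose. They were Lair1, an inhibitory collagen receptor of immune cells (-1.80, adjusted p = 0.00101), and Cd44 (-1.32, adjusted p = 0.00219), best known as the hyaluronan receptor. Macrophages and other immune cells express Lair1 and Cd44, and the macrophage values given above moved in the same comparison. The part of these cells in the falls of Lair1 and Cd44 was not tested.

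Of 15 basement membrane partners 2 rose in g KO and 0 fell: Nid1, which links laminin to type IV collagen (0.38, adjusted p = 0.0378), and the laminin chain Lama4 (0.32, adjusted p = 0.044). In sc limma called 0 genes of the 5 lists for the knockout, where 0.677% of all genes were called. The smallest adjusted p there was 0.0799, for Lox at -0.84, and Mmp14 was -0.54 (adjusted p = 0.0847). The difference between depots was called for 0 genes of the 5 lists. Mmp2 had -0.72 (adjusted p = 0.174) and Pxdn 0.64 (adjusted p = 0.193).

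Between depots, receptors of type VI collagen were called higher in g, as were its alpha 5 and alpha 6 chains. Its alpha 3 chain was called lower in g, and its alpha 1 and alpha 2 chains were not called. Antxr2, the receptor through which collagen VI is taken up, was higher in g by 0.74 in wild type (SE 0.09, adjusted p = 8.61e-06) and 0.51 in the knockout (adjusted p = 0.00171). Antxr1, its paralogue, was higher by 0.40 (adjusted p = 0.0145) and 0.41 (adjusted p = 0.0386). Lair1 (2.61), Cd44 (1.74) and Ddr2 (0.32), a receptor of fibrillar collagen, were also called higher in g WT. So 5 of the 11 rose and 0 fell, where 9.3% of all genes were called higher. Immune cell markers were higher in g WT as well. The macrophage mean was 8.36 in sc WT, 8.10 in sc KO, 9.55 in g WT and 8.83 in g KO, with 12 of 14 markers called higher in wild type (median 1.49) and 11 in the knockout (median 0.82). The mast cell mean was 6.42 in sc WT and 6.0 in sc KO, with 6 of 7 called higher in g WT (median 1.79) and 0 in g KO. The part of these cells in the receptor and enzyme differences was not tested. Of the degrading enzymes 4 of 8 were higher in g WT, Mmp13 by 1.03, Ctsk by 1.09, Mmp14 by 0.60 and Mmp8 by 0.48, and 0 in g KO. Of the processing list Pcolce2 (-1.01), Lox (-0.84) and Pxdn (-0.52) were lower and Loxl3 (0.57) higher in g WT. Colgalt1 (0.53) and P4ha1 (0.31), which modify nascent chains, and the laminin chains Lama2 (0.51) and Lama3 (0.35) were higher, and Nid1 (-0.34) was lower. In the knockout P3h2 (0.54), Loxl3 (0.39) and Cd44 (0.96) were the other calls, all higher in g.

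**Figure D5:**
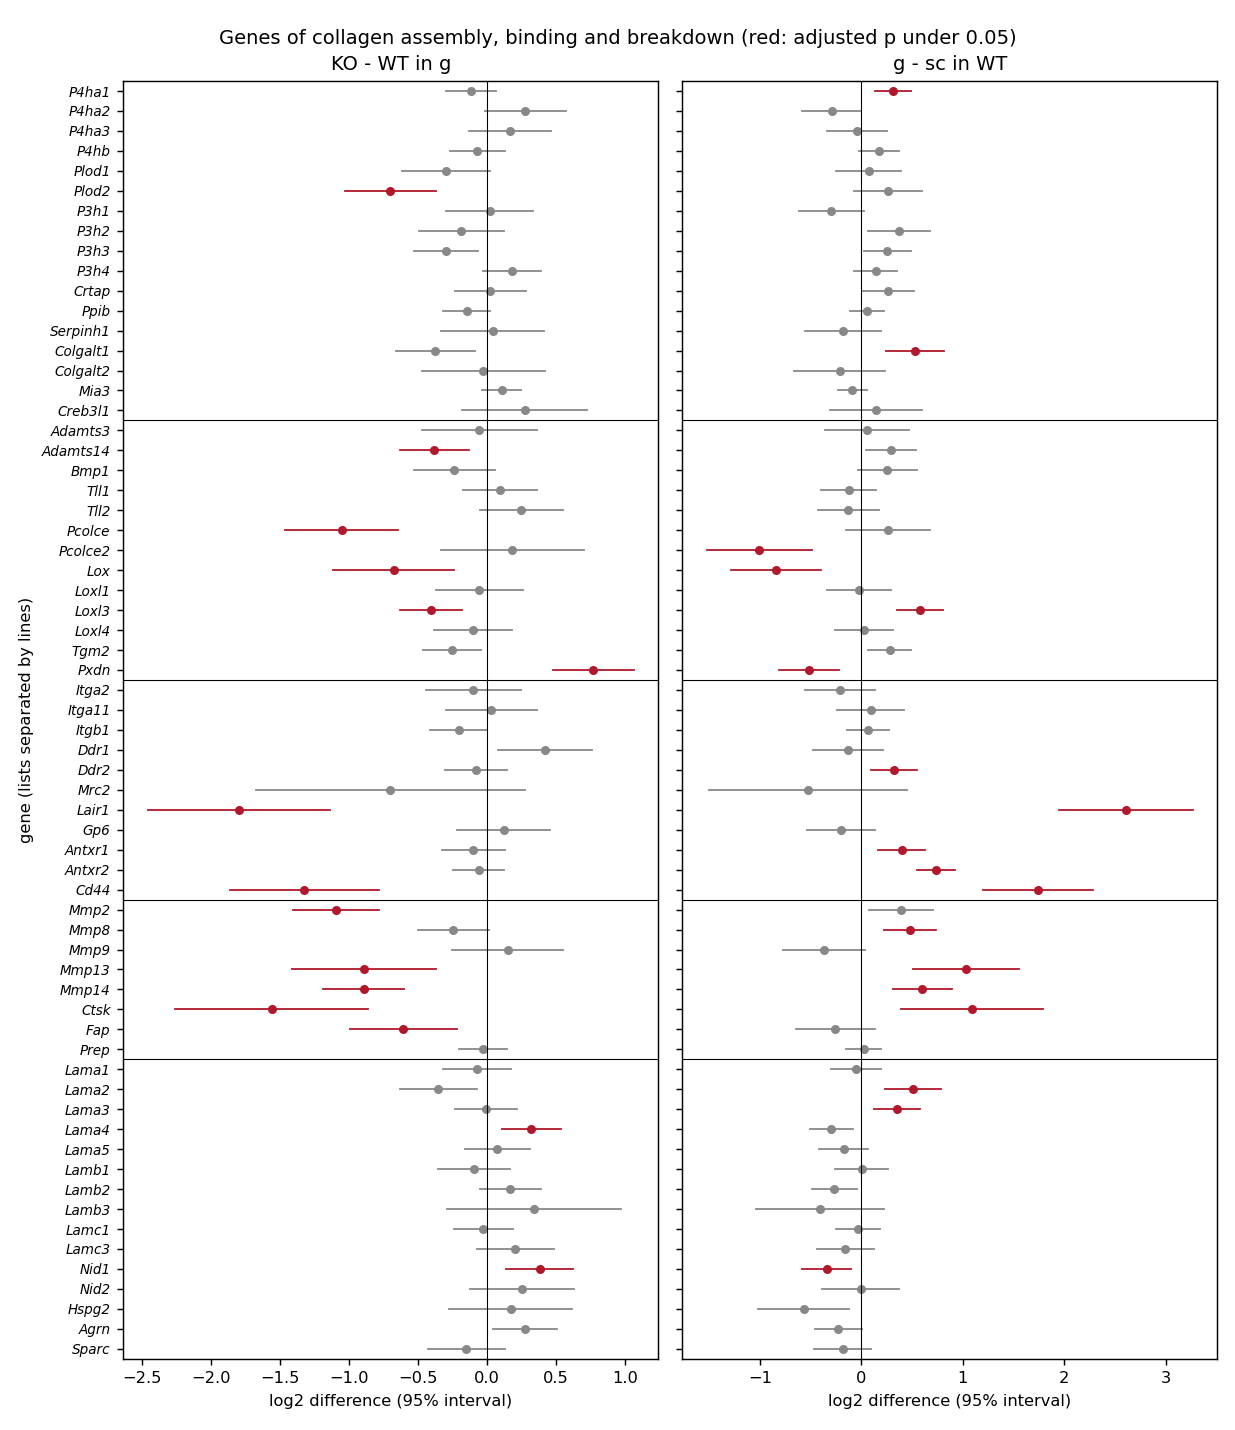
Log2 differences with 95% intervals for genes that act on collagen, in knockout against wild type of g (left) and g against sc of wild type (right). Red marks an adjusted p under 0.05, and lines separate the lists of hydroxylation and folding, processing and crosslinking, receptors, degrading enzymes and basement membrane partners. Of 8 degrading enzymes, 5 are red and below 0 on the left, and Lair1, Cd44, Antxr1, Antxr2 and Ddr2 are red and above 0 on the right.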

How the data were processed

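Total RNA of 20 samples was measured on Affymetrix expression arrays after labelling with the GeneChip WT PLUS kit, per the labels. RMA and limma are named in the submitters' processing notes without versions, and each deposited value is a log2 signal of 1 probe. Whether the authors ran RMA jointly on the arrays is not recorded there. The table has 28846 probes. Setting aside 6640 controls left 22206, of which 19572 have 1 gene symbol, 0 have several and 2634 have no symbol. The brightest probe stood for each of 55 genes that have more than 1, which gave 19505 genes. Each collagen chain had 1 probe, and all 42 matched the RefSeq gene table of GRCm38.p6, from whose companion table promoter sequences were taken. The list genes Col12a1, Col21a1 and Col7a1 were not analysed here. The number of arrays limits the precision.

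The values were fitted in R 4.3.3 with limma 3.58.1, with 4 group means, no covariate and 16 residual degrees of freedom, and moderated two-sided p-values with Benjamini-Hochberg adjustment over all genes in each of 5 comparisons. Python 3.11.15 with pandas 2.3.3 and numpy 2.4.6 did the rest. Array medians were 6.23 to 6.29, and correlations across genes between arrays of a group were 0.953 to 0.992, at a median of 0.981. The members, classes, pathway lists and marker lists were chosen with earlier results of these data known. All fibrillar, type IV and type VI chains, each other chain called in any comparison and the 2 brightest of the rest are named, and of each pathway list the called genes, up to 5, or else the genes with the smallest p, of which some are printed.

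Each title number occurs once in each depot, with the same genotype in both, but no label says that it marks an animal. The residuals of same-numbered arrays correlated between -0.461 and 0.142 (median 0.0111) and in 2 of 10 numbers above 0.1. These correlations do not settle whether a number pairs the arrays, and the main fit treated the arrays as unpaired. The number as a block was an alternative. The other alternatives were quantile and median scaling, a minimum of 5, the probe rule, unnamed probes, the variance model, array weights, the arrays entered, marker means as covariates, leaving out arrays with a marker mean above 7, and leaving out each array. The design text of the series names a second gene beside Olfm2 for the sc arrays, while every label gives Olfm2, and the labels were used.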

Additional observations from a re-analysis of the deposited data

Results flagged for a closer look

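In 108 groups of 5 arrays of the 27 named chains, 7 had an array whose gap to its neighbour was over 0.71 of the group's range, and chance gives about 1 in 20. Array sc286WT, which carried the highest skeletal muscle marker mean and a high lymphocyte marker mean, was the lowest of its group for 27 of the 42 chains. It stood apart by that gap for 3: Col15a1 at 9.30 (next 9.73), Col4a2 at 9.29 (next 9.64) and Col5a1 at 7.29 (next 7.79). Without that array Col1a2 was called lower in sc KO, the only call among its 27 alternatives there. Col14a1 was lowest on sc318KO, at 5.70 (next 6.22). Col11a1 was highest on sc300KO, at 5.75 (next 5.49), and lowest on g286 WT, at 4.92 (next 5.33). Col2a1 was highest on g318 KO, at 5.37 (next 5.04). The knockout effect on Col6a5 differed between the depots, by -1.02 on the log2 scale (g minus sc), in limma's test of that difference, which ended without any 1 of 15 arrays.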

How the results depend on the processing

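Of 1019 alternative values for 37 tested gene results, 884 kept their direction and their side of the threshold, 101 lost a call, 29 gained one and 5 changed sign. The sign changes were all in g against sc of wild type: with the macrophage covariate Col14a1 was -0.079 and Col6a1 -0.35, and with the adipocyte covariate Col15a1 was 0.32, Col4a2 0.34 and Col5a3 0.00030. The cause was not tested. The macrophage and adipocyte means did not overlap between the groups in the g knockout comparison or in either depot comparison. Fits with these covariates therefore cannot separate marker from group there. Counts of called chains were as follows, with the cause not tested. For the knockout in g the 5 became 2 with the hepatocyte covariate, 3 with hepatocyte, lymphocyte and muscle covariates, 1 with the fibroblast covariate, 0 with the macrophage or adipocyte covariate, and 1 without the hepatocyte-rich arrays. For g against sc of wild type the 5 became 12 with array weights, 9 with only these groups fitted, 1 with the macrophage covariate, and 2 with the hepatocyte, the 3 joint or the adipocyte covariates or without hepatocyte-rich arrays. For g against sc of the knockout the 4 became 2 with the adipocyte covariate and 2 without hepatocyte-rich arrays. For the difference between depots the 1 became 0 under quantile or median scaling, every marker covariate, and without the lymphocyte-rich or the muscle-rich arrays. Medians over the 42 chains became -0.082 and -0.17 for the knockout in g with the macrophage and the adipocyte covariate, -0.066 and 0.14 for the wild-type depots, and 0.029 and 0.022 for the knockout depots. For the difference between depots the adipocyte covariate gave -0.091.

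Leaving out 1 array gave 0 to 1 calls for the knockout in sc, 3 to 6 in g, 2 to 7 for the wild-type depots, 4 to 5 for the knockout depots and 0 to 1 for the difference. With the title number as a replicate block (consensus correlation 0.0863) the counts were 0, 5, 5, 6 and 1. The block added Col1a1 (-0.54, adjusted p = 0.048) and Col4a5 (0.43, adjusted p = 0.0331) to the knockout depots and ended no call. Signal over background limits Col10a1, Col24a1, Col4a3 and Col6a4, and Col4a5 in sc. It also limits how far Col6a5 and Col6a6 can fall in sc, where their group means were 5.46 to 5.84. Without the hepatocyte-rich arrays 1 g KO array is left, and the g KO comparisons then rest on it.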
